A study of Mus musculus with 6 samples.

Results

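The genes described here encode the machinery that shortens poly(A) tails, removes the 5′ cap and degrades mRNA from either end. They were chosen as a list of 46 gene symbols sorted by complex: 9 of CCR4-NOT, 3 for PAN2, PAN3 and PARN, 15 of decapping, the LSM ring and 5′-to-3′ decay, 6 of nonsense-mediated decay, 4 BTG/TOB adaptors and 9 of the RNA exosome. For 45 of them a probe set with exactly 1 gene symbol was found among the 19938 genes measured, and Upf3b was not analysed here. RNA came from CD44-low CD8+ T cells isolated by cell sorting from spleen and lymph nodes of 10-week-old C57BL/6 mice, with 3 Affymetrix arrays from sanroque mice (Roquinsan/san) and 3 from wild-type mice (Roquin+/+). Sanroque mice are homozygous, in all their cells, for a point mutation in Rc3h1, whose product Roquin binds and represses mRNAs. The labels call the arrays biological replicates and do not say whether animals were pooled.

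Most mRNA decay in the cytoplasm starts with removal of the poly(A) tail by the CCR4-NOT and PAN2-PAN3 complexes. The body is then decapped and digested from the 5′ end by XRN1, or digested from the 3′ end by the exosome. Roquin binds stem-loops in target mRNAs such as Icos and brings CCR4-NOT and decapping factors to them, so the comparison asks whether the RNAs of the machinery itself differ in level between sanroque and wild-type cells.

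All levels below are log2 of the deposited intensity, each gene is set against itself across the 6 arrays, and a log2 fold is sanroque minus wild type. Calls rest on limma's moderated fit, at p-values adjusted over all 19938 genes (Benjamini-Hochberg) and under 0.05. Rc3h1 itself read 9.98, 10.17 and 10.30 in sanroque and 9.93, 10.11 and 9.97 in wild type, and an allele that is a point mutation is not checked by its RNA level. Cd8a, the coreceptor chain used in the sort, read 12.99 to 13.02 in sanroque and 13.00 to 13.05 in wild type. Cd44, the marker that set the gate, was called higher, at 7.34, 7.70 and 7.90 in sanroque and 5.98, 6.43 and 6.34 in wild type. Transcripts of other cells differed between the groups. Of 8 myeloid markers 8 were called higher in sanroque, with summed linear intensities of 5548 to 8719 in sanroque and 533 to 1078 in wild type. Of 7 B cell markers 5 were called higher, with sums of 4630 to 5619 in sanroque and 1411 to 3062 in wild type, and of 4 plasma cell markers 3 were called higher (sums 1563 to 2151 in sanroque and 470 to 777 in wild type). Of 5 genes of cycling cells 4 were called higher, with sums of 778 to 871 in sanroque and 181 to 224 in wild type. Of 4 T cell markers 0 were called higher and 1, Cd3d, lower, with sums of 21300 to 21700 in sanroque and 22400 to 23600 in wild type. Of the CD4 T cell markers Cd4 and Zbtb7b, 1 was called higher (sums 210 to 296 in sanroque and 109 to 159 in wild type). Of 6 stress and dissociation genes limma called 0, with sums of 12840 to 20480 in sanroque and 12360 to 16570 in wild type. No marker was listed at 0, and the lowest value among them was 4.73. The part of these cells in the results below was not tested. In a bulk sample, fewer cells of a type and less RNA per cell cannot be told apart.

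Of the 45 measured genes, 5 fell in sanroque cells and 0 rose. They were Exosc8 and Exosc1 of the exosome, Lsm5 and Lsm3 of the LSM ring, and the deadenylase Cnot8, with falls of 1.54-fold, 1.36-fold, 1.51-fold, 1.35-fold and 1.41-fold. Over all genes 2.51% were called lower and 3.26% higher. All 45 members had a mean log2 level of at least 6, and among the 9750 genes at or above that level 4.98% were called lower and 4.81% higher. At an unadjusted p under 0.05, limma gave 13 members lower and 3 higher, where all genes had 10.7% lower and 8.16% higher and those with a mean of at least 6 had 20.0% and 12.3%. In 12 members every sanroque array was below every wild-type array, against a background of 13.2% of all genes and 20.6% of those with a mean of at least 6. In 5 members every sanroque array was above, against 9.46% and 13.5%.

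**Figure D1:**
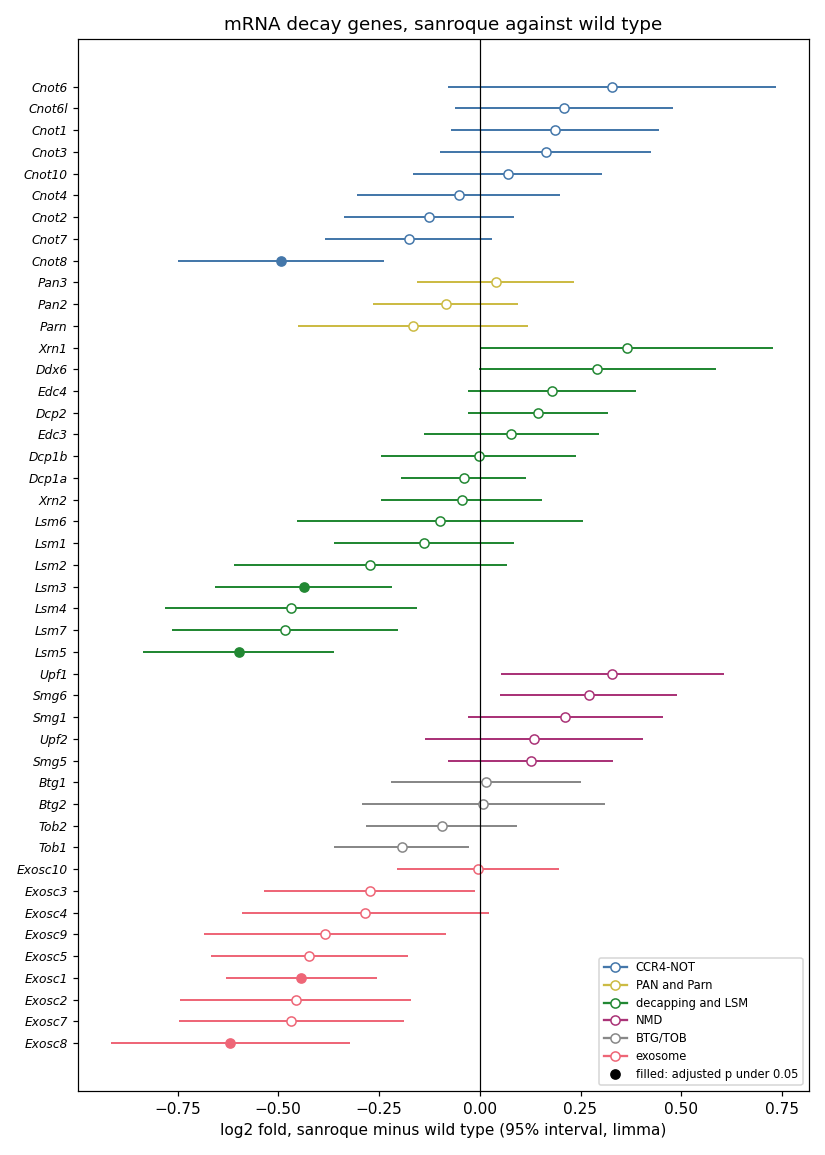
Log2 folds of the 45 genes, sanroque minus wild type, with limma's 95% intervals, sorted within each complex and coloured by complex. Filled points mark the 5 genes called over all genes, all of them below 0, and the 9 exosome genes and the 7 Lsm genes all lie at or left of 0.

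Direction differed by complex, as a description. The median log2 fold was -0.42 over the 9 exosome genes and -0.44 over the 7 Lsm genes, against -0.03 over all genes and -0.05 over genes with a mean of at least 6. It was 0.21 over the 5 measured genes of nonsense-mediated decay, 0.07 over CCR4-NOT, -0.08 over PAN2, PAN3 and PARN, and -0.04 over BTG/TOB. The 8 decapping and 5′-to-3′ decay genes outside the LSM ring had a median of 0.11. The Lsm genes were set apart from these 8 after their values were seen, and differences between complexes were not tested. The calls depended on single arrays. The number of members called lower was 0 without sanroque replicate 1, without sanroque replicate 2 or without wild type replicate 1, and 1 without wild type replicate 2. It was 8 without sanroque replicate 3, and 6 without wild type replicate 3, where all 5 genes called with all arrays were kept. It was 0 without both sanroque replicate 1 and wild type replicate 2. The calls over all genes moved with them. Of 19938 genes, 501 were called lower with all arrays. That count was 148, 55 and 728 when sanroque replicates 1, 2 and 3 were left out in turn. It was 22, 91 and 454 when wild type replicates 1, 2 and 3 were, and 27 when the pair was. In the 4 fits with 0 members called, limma gave 10 or 11 members lower at an unadjusted p under 0.05, against 7.47% to 8.19% of all genes and 11.8% to 15.2% of those with a mean of at least 6. The exosome median stayed between -0.49 and -0.34 when any single array was left out.

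The upstream sequences of called genes of the exosome and the LSM ring are shown because these genes moved the same way. RefSeq's promoter table (GRCm38.p6) held 38 of the 46 listed genes. Each line gives the 250 bases before the annotated start, 5′ to 3′ on the gene's strand, and capitals mark letters matched on either strand by CCGGAAG (the ETS core), TGCGCA (the NRF1 half-site), GGGCGG (the GC box), CCAAT (the CCAAT box) or TATAAA (the TATA box), which may overlap. Cnot8, the fifth called gene, has 4 annotated starts and is not printed.
Exosc1, chr19:41933315-41933564, minus strand: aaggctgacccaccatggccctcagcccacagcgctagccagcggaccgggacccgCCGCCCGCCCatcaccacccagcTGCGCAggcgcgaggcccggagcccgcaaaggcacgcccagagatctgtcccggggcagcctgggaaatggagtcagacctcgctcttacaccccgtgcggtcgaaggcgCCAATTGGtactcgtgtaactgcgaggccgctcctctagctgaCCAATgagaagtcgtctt
Exosc8, chr3:54735365-54735614, minus strand: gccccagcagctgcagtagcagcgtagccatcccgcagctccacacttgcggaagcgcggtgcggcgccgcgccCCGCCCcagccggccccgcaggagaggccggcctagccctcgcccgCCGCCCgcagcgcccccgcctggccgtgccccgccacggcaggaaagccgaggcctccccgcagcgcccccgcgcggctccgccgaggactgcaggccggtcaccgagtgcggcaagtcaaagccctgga
Lsm3, chr6:91515785-91516034, plus strand: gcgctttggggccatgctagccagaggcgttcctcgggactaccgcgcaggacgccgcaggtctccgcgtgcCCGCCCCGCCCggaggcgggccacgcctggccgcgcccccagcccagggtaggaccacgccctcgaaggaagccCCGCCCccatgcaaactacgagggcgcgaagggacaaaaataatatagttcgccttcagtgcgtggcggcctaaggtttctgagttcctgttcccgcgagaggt
Lsm5, chr6:56704700-56704949, minus strand: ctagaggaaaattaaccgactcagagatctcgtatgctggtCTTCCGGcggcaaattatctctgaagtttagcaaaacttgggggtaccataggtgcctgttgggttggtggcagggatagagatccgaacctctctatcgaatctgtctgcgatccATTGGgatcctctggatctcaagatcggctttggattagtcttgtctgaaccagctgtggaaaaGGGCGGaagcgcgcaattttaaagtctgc

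GC box letters stood in all 4 windows, 3 times in Lsm3, 2 times in each of Exosc1 and Exosc8, and 1 time in Lsm5. Exosc1 also held the NRF1 half-site 1 time and the CCAAT letters 3 times, and Lsm5 held 1 ETS core and 1 CCAAT. The TATA letters were in 0 of the 4. Of the 15 windows of exosome and Lsm genes, 66.7% held a GC box, against 68.8% of the 32 windows of the other members and 32.7% of all 32851 windows in the table. The 15 windows belong to 12 genes and the 32 to 26, so some genes count more than once. The windows of the whole table were not matched to the members by RNA level. The NRF1 half-site was in 20.0% of the exosome and Lsm windows, or 3 of 15, in 12.5% of those of the other members and in 6.43% of all. The CCAAT letters were in 33.3%, 28.1% and 33.8%, the ETS core in 13.3%, 12.5% and 6.91%, and the TATA letters in 0.0%, 6.25% and 12.4%. A match is a description of letters and not of a bound site.

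Exosome genes had log2 folds below 0 in all 9 cases, against 61.5% of all genes and 58.9% of those with a mean of at least 6. The exosome is a barrel of catalytically inactive ring subunits under a cap of RNA-binding subunits, to which nucleases attach. Of the ring genes, Exosc8 fell, and it read 9.59, 9.54 and 9.88 in sanroque and 10.36, 10.43 and 10.08 in wild type (log2 fold -0.62 ± 0.13, SE, 3 arrays each, limma, Benjamini-Hochberg adjusted p = 0.0370). Its groups did not overlap, and sanroque replicate 3 and wild type replicate 3 lay nearest to each other. Exosc5, another ring gene, read 8.15, 8.29 and 8.48 in sanroque and 8.79, 8.79 and 8.60 in wild type (log2 fold -0.42 ± 0.10, limma, Benjamini-Hochberg adjusted p = 0.0619). It did not pass, and its groups did not overlap either. The ring genes Exosc7, Exosc9 and Exosc4 had log2 folds of -0.47, -0.38 and -0.28 and did not pass.

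Of the cap genes, Exosc1 fell, at 9.34, 9.32 and 9.44 in sanroque and 9.93, 9.73 and 9.77 in wild type (log2 fold -0.44 ± 0.08, limma, Benjamini-Hochberg adjusted p = 0.0247). The sanroque arrays lay close together and below all wild-type arrays. The cap genes Exosc2 and Exosc3 had log2 folds of -0.46 and -0.27, with adjusted p-values of 0.0796 and 0.233 from limma, and neither passed. Exosc10, the gene of a nuclease that docks on the nuclear exosome, read 9.65, 9.76 and 9.82 in sanroque and 9.67, 9.69 and 9.87 in wild type. Its groups overlapped and its log2 fold was -0.0046, with a 95% interval from -0.20 to 0.19. In all, 2 of 9 exosome genes were called lower and 7 were not called, where 4.98% of genes with a mean of at least 6 were called lower. In 6 of the 9 every sanroque array lay below every wild-type array, against 20.6% of such genes. At an unadjusted p under 0.05, 7 of the 9 were lower, where 20.0% of genes with a mean of at least 6 were.

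The LSM ring made of Lsm1 to Lsm7 binds the 3′ end of deadenylated mRNA and promotes decapping, and Lsm2 to Lsm7 with Lsm8 form a nuclear ring on U6 snRNA. Lsm5 fell, at 7.64, 7.68 and 7.54 in sanroque and 8.20, 8.40 and 8.05 in wild type (log2 fold -0.60 ± 0.10, limma, Benjamini-Hochberg adjusted p = 0.0206). Lsm3 fell, at 8.79, 8.72 and 8.85 in sanroque and 9.35, 9.26 and 9.05 in wild type (log2 fold -0.44 ± 0.09, limma, Benjamini-Hochberg adjusted p = 0.0418). In both genes all sanroque arrays lay below all wild-type arrays. Lsm7 read 9.23, 9.21 and 9.23 in sanroque and 9.94, 9.73 and 9.46 in wild type (log2 fold -0.48 ± 0.12, limma, Benjamini-Hochberg adjusted p = 0.0637). Its sanroque arrays were nearly equal, and its wild-type arrays were spread apart and all higher. Lsm4 had a log2 fold of -0.47 (adjusted p = 0.0952) and did not overlap between groups, and Lsm2, Lsm1 and Lsm6 had log2 folds of -0.27, -0.14 and -0.10 with overlapping groups. Counted over the ring, 2 of 7 genes were called lower, 0 higher and 5 not called. Among genes with a mean of at least 6, 4.98% were called lower and 4.81% higher. In 4 of the 7 every sanroque array lay below every wild-type array, against 20.6% of such genes.

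**Figure D2:**
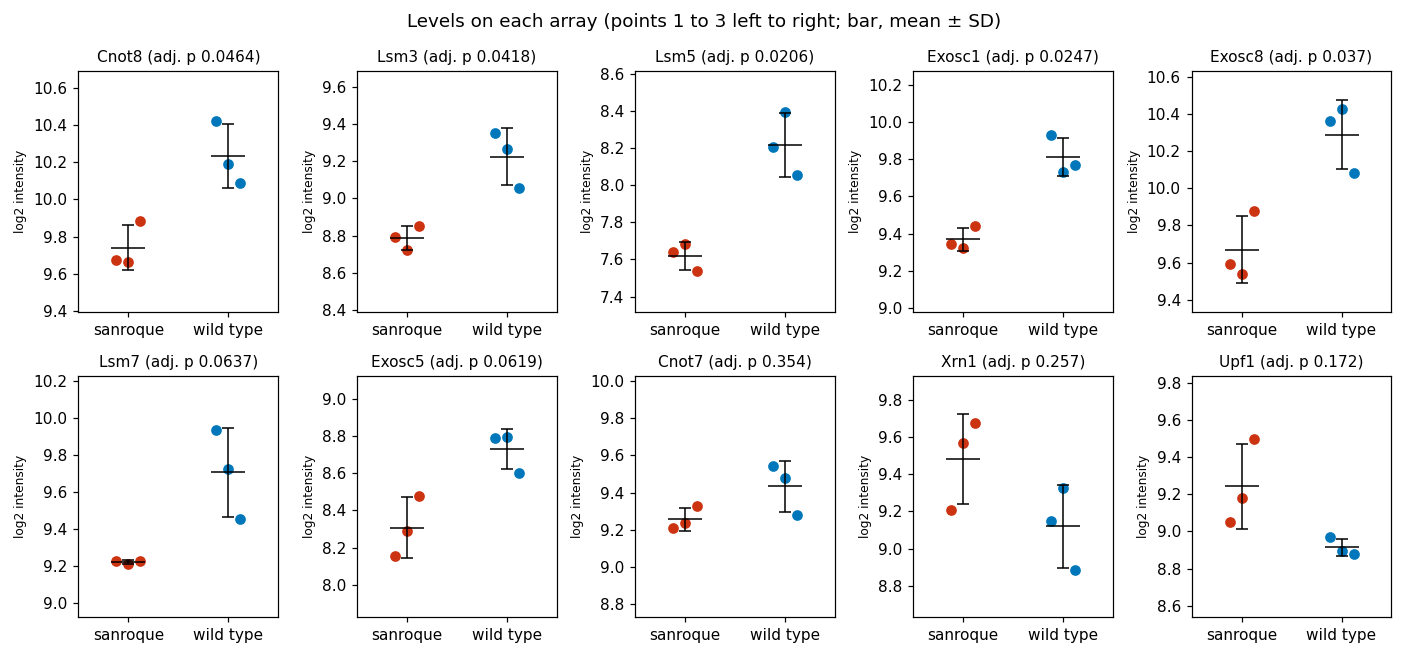
Log2 intensity on each array for the 5 called genes (upper row) and for Lsm7, Exosc5, Cnot7, Xrn1 and Upf1 (lower row), sanroque left of wild type, with replicates 1 to 3 from left to right and bars for the mean ± SD of 3 arrays. The vertical axes differ in position but span the same range; the groups do not overlap in any gene of the upper row and overlap in Cnot7 and Xrn1.

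Further probe sets gave a check on these levels in 6 members. Of 8 further probe sets, 1 had a log2 fold of opposite sign. The second-brightest Lsm5 probe set gave -0.68 and a dim one -0.18, the other Lsm7 probe set gave -0.49, and the Lsm6 probe sets gave -0.09 and -0.13. A dimmer Cnot8 probe set gave -0.56 with overlapping groups. A dim Exosc3 probe set gave -0.09 with overlapping groups, against -0.27 without overlap in the one used. The exception was Cnot1, with 0.19 in the probe set used and -0.16 in the other. The files do not place probe sets on the genome, so probe sets on near-identical gene copies cannot be told apart. With all probe sets of a gene averaged, the log2 folds were -0.49 for Lsm5 and -0.53 for Cnot8, and neither passed (adjusted p = 0.0963 and 0.103, limma). For Cnot1 the average gave 0.014, and the CCR4-NOT median was then 0.014, against 0.07 with the probe sets used.

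CCR4-NOT, the main cytoplasmic deadenylase, had 1 of 9 genes called lower, 0 higher and 8 not called. Of genes with a mean of at least 6, 4.98% were called lower and 4.81% higher. Cnot8, a catalytic subunit of the CAF1 type, read 9.68, 9.66 and 9.88 in sanroque and 10.42, 10.19 and 10.09 in wild type (log2 fold -0.49 ± 0.11, limma, Benjamini-Hochberg adjusted p = 0.0464). Its groups did not overlap. Its paralog Cnot7 read 9.21, 9.23 and 9.33 in sanroque and 9.55, 9.48 and 9.28 in wild type, a log2 fold of -0.18 with a 95% interval from -0.38 to 0.03 that did not pass. The groups overlapped through wild type replicate 3.

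The CCR4-type catalytic subunits leaned the other way without passing. Cnot6 read 9.42, 9.47 and 10.06 in sanroque and 9.27, 9.47 and 9.22 in wild type (log2 fold 0.33 ± 0.17). Sanroque replicate 3 alone stood clear of the wild-type arrays. Cnot6l read 10.88, 11.29 and 11.16 in sanroque and 10.80, 10.95 and 10.96 in wild type (log2 fold 0.21 ± 0.11), with overlapping groups. The scaffold gene Cnot1 read 10.85, 10.92 and 11.23 in sanroque and 10.73, 10.86 and 10.84 in wild type (log2 fold 0.19 ± 0.11), again overlapping. Its other probe set gave -0.16, so the direction for Cnot1 depends on the probe set. The other subunits did not pass either: Cnot3 and Cnot2 of the structural module had log2 folds of 0.16 and -0.13, the ubiquitin ligase Cnot4 had -0.05, and Cnot10 had 0.07.

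Of the other deadenylases, Pan2, the catalytic subunit of the PAN complex, read 8.65, 8.64 and 8.82 in sanroque and 8.75, 8.83 and 8.78 in wild type. Parn, a separate poly(A) ribonuclease, read 8.77, 8.65 and 8.52 in sanroque and 8.72, 9.05 and 8.66 in wild type. The groups overlapped in both. The log2 folds were -0.08 for Pan2, -0.17 for Parn and 0.04 for Pan3, the adaptor of Pan2, and 0 of the 3 passed limma's test in any direction, also at an unadjusted p under 0.05.

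Paralogs were also compared within each array, where a shared shift of an array cancels. In 6 pairs, the first minus the second log2 intensity was taken on each array and compared between genotypes with a two-sided exact permutation test, which cannot go below p = 0.10 with 3 against 3 arrays. Only the change in this difference has a meaning, since probe sets differ in brightness. Cnot8 minus Cnot7 was 0.47, 0.43 and 0.56 in sanroque and 0.88, 0.71 and 0.81 in wild type, a change of -0.32 (exact permutation p = 0.10, adjusted over the 6 pairs p = 0.30). Xrn2 minus Xrn1 was 1.48, 1.19 and 1.11 in sanroque and 1.50, 1.58 and 1.92 in wild type, a change of -0.41 (exact permutation p = 0.10, adjusted p = 0.30). In these pairs the groups did not overlap, and the p is the smallest the design allows. The changes were -0.12 for Cnot6l minus Cnot6, 0.04 for Dcp1b minus Dcp1a, -0.01 for Btg2 minus Btg1 and 0.10 for Tob2 minus Tob1, with exact permutation p-values of 0.30 to 1.

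**Figure D3:**
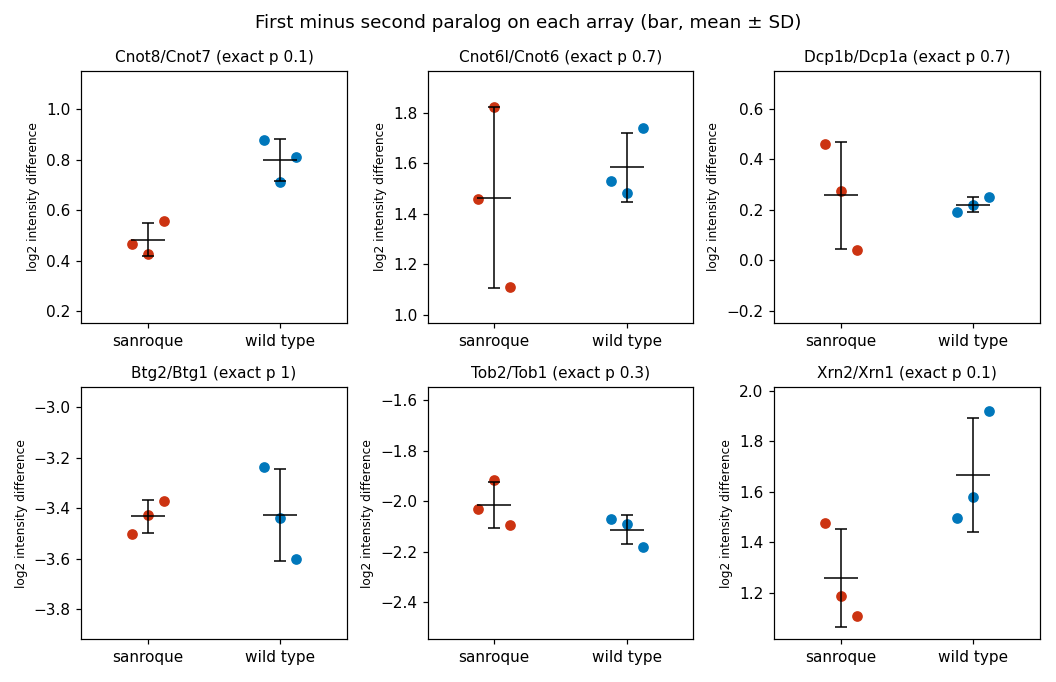
Difference in log2 intensity between the paralogs of 6 pairs on each array, sanroque left of wild type, with replicates 1 to 3 from left to right and bars for the mean ± SD of 3 arrays. The arrays of the genotypes do not overlap for Cnot8/Cnot7 and Xrn2/Xrn1, both lower in sanroque, and overlap in the other 4 pairs.

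Among the decapping enzyme, its cofactors and the 5′-to-3′ nucleases, 0 of 8 genes were called by limma. At an unadjusted p under 0.05, 1 of the 8 was higher, where 12.3% of genes with a mean of at least 6 were. In 2 of the 8 every sanroque array was above every wild-type array, against 13.5% of such genes. Xrn1, the cytoplasmic nuclease, read 9.21, 9.57 and 9.67 in sanroque and 9.15, 9.32 and 8.88 in wild type (log2 fold 0.36 ± 0.15, limma, Benjamini-Hochberg adjusted p = 0.257). The groups overlapped, since sanroque replicate 1 lay below wild type replicate 2. Dcp2, the catalytic decapping enzyme, read 8.58, 8.63 and 8.51 in sanroque and 8.43, 8.50 and 8.34 in wild type (log2 fold 0.14 ± 0.07, limma, Benjamini-Hochberg adjusted p = 0.365). Its groups did not overlap, though sanroque replicate 3 and wild type replicate 2 were nearly equal. Edc4, a decapping scaffold that Roquin is known to bind, had a log2 fold of 0.18 with groups that did not overlap, and the helicase gene Ddx6 had 0.29 with overlapping groups. The nuclear nuclease gene Xrn2 had -0.05, Edc3 had 0.08, and the decapping cofactors Dcp1a and Dcp1b had -0.04 and -0.0024.

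All 5 measured genes of nonsense-mediated decay, which removes mRNAs with early stop codons, had log2 folds above 0, and limma called 0 of the 5. At an unadjusted p under 0.05, 2 of the 5 were higher, where 12.3% of genes with a mean of at least 6 were. Over all genes 38.5% of log2 folds were above 0, and 41.1% among genes with a mean of at least 6. Upf1, the helicase of the pathway, read 9.05, 9.18 and 9.50 in sanroque and 8.97, 8.90 and 8.88 in wild type (log2 fold 0.33 ± 0.12, limma, Benjamini-Hochberg adjusted p = 0.172). Every sanroque array was above every wild-type array, with sanroque replicate 3 the highest. Smg6, the endonuclease, read 8.65, 8.81 and 8.74 in sanroque and 8.31, 8.61 and 8.46 in wild type (log2 fold 0.27 ± 0.09, limma, Benjamini-Hochberg adjusted p = 0.159). Smg1, the kinase that phosphorylates UPF1, read 10.53, 10.54 and 10.83 in sanroque and 10.33, 10.45 and 10.49 in wild type (log2 fold 0.21 ± 0.10). Groups did not overlap in these 3 genes, and overlapped in Upf2 (0.13) and Smg5 (0.13). Over genes with a mean of at least 6, 13.5% had every sanroque array above every wild-type array. Without sanroque replicate 3 the median over the 5 genes was 0.11, against 0.21 with all arrays. Other genes of the pathway did not all lie above 0. Of those in the further list described last, the SMG1 partners Smg9 and Smg8 had log2 folds of -0.26 and 0.04, and the exon junction genes Eif4a3, Rbm8a and Casc3 had -0.44, -0.31 and 0.00032. None of these 5 passed limma's test, and Rbm8a came nearest (adjusted p = 0.0516). In Smg9 and Rbm8a all sanroque arrays lay below all wild-type arrays, as in 20.6% of genes with a mean of at least 6.

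BTG and TOB proteins link RNA-binding proteins and poly(A)-binding protein to the CAF1 deadenylases, and Btg1 and Btg2 are known in mice to hold naive T cells quiescent. Tob1 read 8.84, 8.88 and 8.97 in sanroque and 9.06, 9.15 and 9.06 in wild type (log2 fold -0.19 ± 0.07, limma, Benjamini-Hochberg adjusted p = 0.180). It did not pass, and its groups did not overlap. Tob2 read 6.81, 6.96 and 6.88 in sanroque and 6.99, 7.06 and 6.88 in wild type, with a log2 fold of -0.09 and overlapping groups. Btg1 and Btg2 had log2 folds of 0.02 and 0.01, with 95% intervals from -0.22 to 0.25 and from -0.29 to 0.31, on arrays where 4 of 5 genes of cycling cells were called higher.

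**Figure D4:**
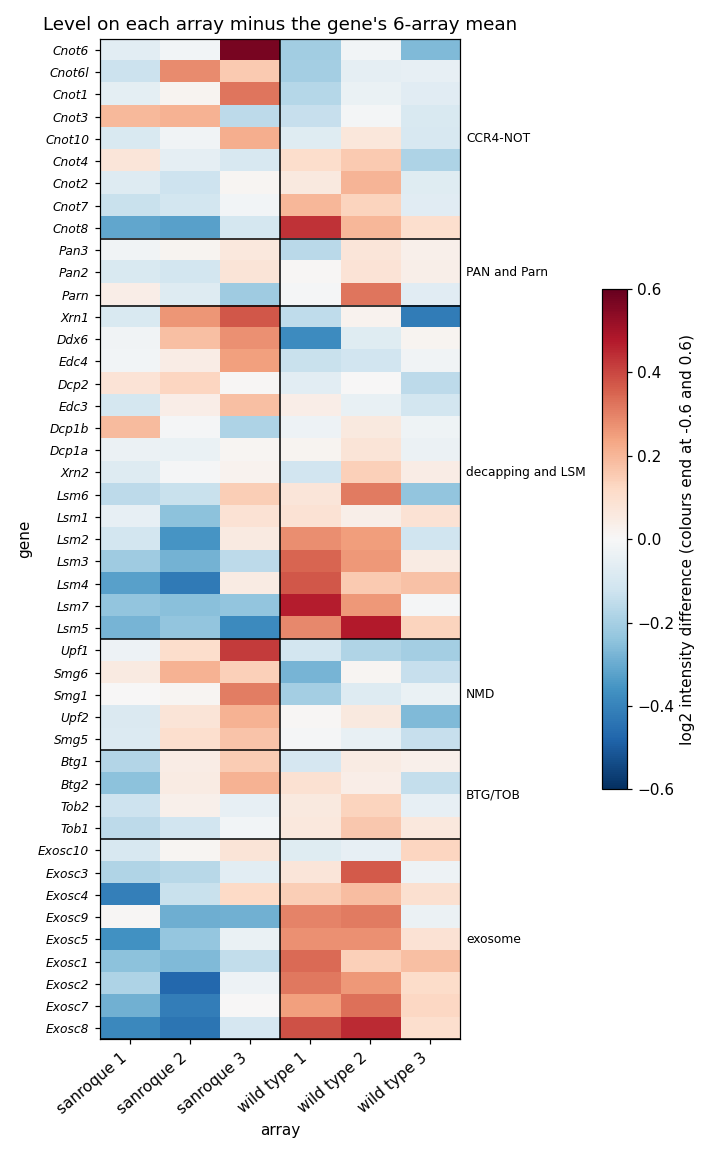
Log2 intensity of each gene on each array minus that gene's mean over the 6 arrays, sanroque arrays left of wild-type arrays, genes grouped by complex in rows and coloured from blue (lower) to red (higher). Most exosome and lower Lsm rows are blue in sanroque replicates 1 and 2 and red in wild type replicates 1 and 2, with both replicates 3 mostly closer to white.

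Arrays of 1 genotype were not alike in these genes. The median deviation of the 9 exosome genes from their own 6-array means was -0.25, -0.27 and -0.04 in sanroque replicates 1 to 3 and 0.27, 0.28 and 0.10 in wild type replicates 1 to 3. For the 7 Lsm genes it was -0.21, -0.25 and 0.05 in sanroque and 0.29, 0.26 and 0.05 in wild type. Over all genes it was -0.013, -0.0078 and -0.030 in sanroque replicates 1 to 3. In wild type replicates 1 to 3 it was -0.00058, -0.023 and 0.050 over all genes. The Lsm value of wild type replicate 3 thus lay near that array's median over all genes. Replicate 3 of each genotype lay nearer the middle than the others in the exosome and Lsm sets. Sanroque replicate 3 was the highest array for 4 of the 5 genes of nonsense-mediated decay and for 13 of the 45 members. Wild type replicate 2 was the highest for 17 members and the lowest for 0. How often each array was the highest or lowest over all genes was not counted. In wild type replicate 2 the medians of B cell markers (8.03, against 7.41 and 6.96) and myeloid markers (6.58, against 5.93 and 5.94) were above those of the other wild-type arrays. So were those of plasma cell markers (7.23, against 5.74 and 5.83), CD4 T cell markers (6.30, against 5.76 and 5.95) and genes of cycling cells (5.59, against 5.24 and 5.22). The medians of T cell markers and of stress genes were not the highest there. The members' median SD within a genotype was 0.139, against 0.117 over all genes. The latter include genes with a mean under 6, which the members do not, and the median over genes of a like level was not taken.

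Other genes of the same pathways were read from a further list. Of 38 listed, 32 were measured, 2 were called lower and 0 higher, with a median log2 fold of -0.09. All 32 had a mean of at least 6, where 4.98% of genes were called lower, so the share called lies near that of such genes. At an unadjusted p under 0.05 limma gave 9 lower and 2 higher, where 20.0% and 12.3% of such genes were. Every sanroque array lay below every wild-type array in 9 of the 32 and above in 2, against 20.6% and 13.5% of such genes. Wdr61, a subunit of the SKI complex that feeds mRNA to the cytoplasmic exosome, read 8.63, 8.55 and 8.60 in sanroque and 9.30, 9.14 and 9.03 in wild type (log2 fold -0.56 ± 0.08, limma, Benjamini-Hochberg adjusted p = 0.0147). Toe1, a nuclear deadenylase, read 7.96, 7.96 and 8.44 in sanroque and 8.67, 8.80 and 8.72 in wild type (log2 fold -0.61 ± 0.14, limma, Benjamini-Hochberg adjusted p = 0.0479). In both, all sanroque arrays lay below all wild-type arrays. Further genes of this list, here and beside nonsense-mediated decay, are named after their values were seen. The other SKI genes did not pass, with log2 folds of 0.19 for the helicase Skiv2l and 0.12 for Ttc37, and the exosome nucleases Dis3 and Dis3l had -0.07 and 0.11. Lsm8, the nuclear partner of Lsm2 to Lsm7, had a log2 fold of -0.56 with groups that did not overlap, and missed the threshold (adjusted p = 0.10 from limma). Nudt16 and Pabpc1 had smaller p-values than Lsm8 and also missed it, with adjusted p-values of 0.0903 and 0.0967 from limma. The log2 fold of Nudt16 was -0.40, with all sanroque arrays below all wild-type arrays. That of Pabpc1 was 0.25, with all sanroque arrays above.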

How the data were processed

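RNA levels were measured on 6 Affymetrix arrays, 3 sanroque and 3 wild type. Each probe set has 1 linear intensity per array in the table the authors deposited, and per the labels the target was biotinylated cRNA. The submitters' processing notes name Partek without a role, and how background was corrected and probes summarized and normalized is not given in the sources used here. Array medians were 53.6 to 56.9, so their log2 was used as it stood. The number of arrays limits the precision.

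Of 35399 probe sets, 21789 had exactly 1 symbol in the platform annotation, 1621 several and 11989 none listed. Symbols were updated by gene ID through the GRCm38.p6 gene table, which matched 19856 of 19938 genes. The probe set with the highest mean was used per gene. Genes were compared with limma 3.58.1 in R 4.3.3 (lmFit, eBayes, two-sided, no filter on dim genes), with p-values adjusted over all genes. The fit was also run on simulated data with independent noise, which cannot show whether the calls here are sound. Every array is given for called members, the 3 smallest p per complex (2 in the small ones), 9 enzymes fixed by name (Cnot6, Cnot6l, Cnot7, Cnot8, Pan2, Parn, Dcp2, Xrn1 and Exosc10) and Cnot1. The members and lists were chosen with earlier results of these data known. Alternatives were another probe set rule, a filter on dim genes, quantile normalization, another variance model, array weights, a pseudocount of 16, the replicate block and omission of each array in turn. Chosen after seeing the data were the removal of sanroque replicate 1 together with wild type replicate 2, and a covariate scoring B cell and myeloid markers. Python 3.11.15 with matplotlib 3.10.9 drew the figures.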

Additional observations from a re-analysis of the deposited data

How the results depend on the processing

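Of the 15 alternatives, 12 move a fold of the 8 exosome genes other than Exosc10, and under 11 of these all 8 log2 folds stayed below 0; with the marker score as covariate 7 did. The dim-gene filter, the other variance model and the replicate block leave these folds as they are. The calls held less well. Members called lower, 5 with all arrays, numbered 9 when genes with a mean log2 under 6 were left out, 16 with array weights, and 3 with the mean of all probe sets or with a pseudocount of 16. They numbered 0 with the replicate block, without sanroque replicate 1 and wild type replicate 2 together, and with the score as covariate, where limma gave 11, 10 and 5 members lower at an unadjusted p under 0.05, against 8.42%, 7.61% and 2.81% of all genes and 16.1%, 11.8% and 4.81% of those with a mean of at least 6. Leaving out single arrays gave 0 to 8. Members called higher numbered 6 with array weights and 0 under the other alternatives. Over all genes, 650 were called higher and 501 lower. The counts were 1998 and 2735 with array weights, 271 and 30 with the replicate block, 326 and 27 without the pair of arrays, 0 and 0 with the score (662 and 560 unadjusted), and 196 to 587 and 22 to 728 when single arrays were left out. The score was 1.12 to 1.52 in sanroque and -1.64 to -0.78 in wild type (log2), so it and the genotype can hardly be told apart. With the score, median log2 folds were -0.23 over all members, -0.34 for CCR4-NOT, -0.27 for decapping and LSM genes and -0.72 for the exosome. Among the members given above with every array, the log2 folds of Dcp2 (-0.23), Smg6 (-0.061), Xrn1 (-0.038) and Exosc10 (0.50) turned sign. Members outside that group turned as well. Of the 5 measured genes of nonsense-mediated decay, all above 0 in the main fit, 3 stayed above 0. Without the pair of arrays the medians were 0.061 for BTG/TOB and 0.14 for CCR4-NOT. Single arrays left out gave medians of -0.017 to 0.12 for CCR4-NOT and 0.11 to 0.27 for nonsense-mediated decay. Exosc10 also turned sign with array weights (0.057), with quantile normalization (0.014), without the pair of arrays (0.017) and in the range without single arrays (-0.044 to 0.058). In the same way the paralog changes ranged from -0.095 to 0.088 for Btg2/Btg1, -0.30 to 0.058 for Cnot6l/Cnot6 and -0.064 to 0.15 for Dcp1b/Dcp1a. The causes were not tested. Replicate numbers are shared between genotypes in the labels without a stated pairing, and deviations of same-numbered arrays correlated at -0.0536, -0.159 and -0.365. Of the 6 arrays, 0 correlated best with the array of their own number in the other genotype. The deviations sum to 0 over the 3 arrays of a genotype, so these correlations cannot decide whether the numbers mark pairs.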
